A study of Mus musculus with 43 samples.

Results

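Oligodendrocyte precursor cells (OPCs) of immunocompetent control mice were compared with the 3 other glial cell types purified from the same cortical suspensions. The members were the 6 OPC libraries that the sample labels give as controls, out of 43 libraries in the series, and the comparison group was the 16 control libraries of microglia (n = 6), astrocytes (n = 6) and oligodendrocytes (n = 4). The study asked whether glia depend on lymphocytes and sequenced cortical glia of 3-month-old Rag2-/- mice, which make no mature lymphocytes, beside those of littermates that carry Rag2. Controls numbered 1, 2, 3 and 5 were Rag2+/- and controls 4 and 6 were Rag2+/+. Mice 1, 3, 4 and 6 were male and mice 2 and 5 female, and the oligodendrocytes came from mice 1, 3, 5 and 6. Control libraries of different cell types with the same number were taken to come from the same mouse. This rests on the pair number, sex and genotype that they share in the labels. Cells were caught one after another on dishes coated with antibodies, which bound CD45 for microglia, PDGFRA for OPCs, GalC for oligodendrocytes and HepaCAM for astrocytes, and cells caught on O4 dishes between the OPC and oligodendrocyte steps were not sequenced. CD45 dishes also hold macrophages of the brain's borders. Because the OPCs were selected by the protein that Pdgfra encodes, the level of Pdgfra checks the selection and is no finding.

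OPCs are dividing cells of the adult and developing brain that give rise to oligodendrocytes, the cells that wrap axons in myelin. Platelet-derived growth factor, through its receptor PDGFRA, drives their division and survival, and transcription factors such as OLIG2 and SOX10 set the lineage. They carry the chondroitin sulfate proteoglycan NG2, encoded by Cspg4, and are known for receiving synaptic contacts from neurons through glutamate receptors.

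The OPC libraries held 7523154 to 12318910 counts on genes (median 10260809.5), within the range of 6499417 to 13709286 over all 22 controls. Mitochondrial genes took 22.4% to 32.04% of the counts in OPCs, against 6.76% to 11.7% in microglia, 28.1% to 35.4% in astrocytes and 45.8% to 58.3% in oligodendrocytes. All libraries of 1 cell type were sequenced together on 1 lane, so a lane cannot be told apart from a cell type. Values below are CPM, counts brought to a common library size with edgeR's trimmed mean of M values (TMM), and levels of different genes are compared only per kilobase of exon. Since these are bulk samples, fewer cells of a type and less RNA per cell cannot be told apart. Rag2 itself was too low to check the labels, with 0 to 4 counts in the control OPC libraries and 0 in every Rag2-/- library.

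To show the sequence at the start of the genes that mark OPCs, the promoters of the 3 markers and of Sapcd2 and Ebf1, the 2 protein-coding genes that separated OPCs most widely from the other glia among those of at least 10 CPM in OPCs, are printed from 250 bases before to 50 bases after the transcript start (GRCm39, GENCODE M39 starts, all on the plus strand). Capitals mark the letters CAGCTG or CAGATG, which basic helix-loop-helix factors such as OLIG2 can bind, ACAAAG, which SOX factors can bind, and TATAAA, each searched on both strands. Pdgfra lies at chr5:75312672-75312971, Cspg4 at chr9:56772067-56772366, Ptprz1 at chr6:22875108-22875407, Sapcd2 at chr2:25262078-25262377 and Ebf1 at chr11:44507888-44508187.
Pdgfra: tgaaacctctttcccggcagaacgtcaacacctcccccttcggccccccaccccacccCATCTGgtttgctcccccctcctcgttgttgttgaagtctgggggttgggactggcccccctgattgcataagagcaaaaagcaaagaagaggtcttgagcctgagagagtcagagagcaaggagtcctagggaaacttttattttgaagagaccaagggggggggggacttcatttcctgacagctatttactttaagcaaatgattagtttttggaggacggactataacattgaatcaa
Cspg4: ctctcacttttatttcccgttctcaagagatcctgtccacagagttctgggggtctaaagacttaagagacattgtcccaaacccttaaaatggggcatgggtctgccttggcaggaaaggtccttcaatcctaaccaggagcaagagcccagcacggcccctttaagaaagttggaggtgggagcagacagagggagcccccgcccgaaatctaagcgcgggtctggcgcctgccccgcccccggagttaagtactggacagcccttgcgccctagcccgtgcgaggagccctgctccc
Ptprz1: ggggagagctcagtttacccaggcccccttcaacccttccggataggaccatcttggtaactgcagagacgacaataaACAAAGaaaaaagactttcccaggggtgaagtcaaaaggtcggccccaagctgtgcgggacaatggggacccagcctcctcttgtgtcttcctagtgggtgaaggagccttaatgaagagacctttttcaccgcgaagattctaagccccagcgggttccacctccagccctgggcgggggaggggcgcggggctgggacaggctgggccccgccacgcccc
Sapcd2: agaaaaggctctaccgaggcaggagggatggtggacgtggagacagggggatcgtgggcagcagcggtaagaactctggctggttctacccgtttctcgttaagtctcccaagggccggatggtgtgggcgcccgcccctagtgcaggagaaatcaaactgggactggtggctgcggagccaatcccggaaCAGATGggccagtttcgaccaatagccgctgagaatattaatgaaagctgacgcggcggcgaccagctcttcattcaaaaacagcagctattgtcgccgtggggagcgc
Ebf1: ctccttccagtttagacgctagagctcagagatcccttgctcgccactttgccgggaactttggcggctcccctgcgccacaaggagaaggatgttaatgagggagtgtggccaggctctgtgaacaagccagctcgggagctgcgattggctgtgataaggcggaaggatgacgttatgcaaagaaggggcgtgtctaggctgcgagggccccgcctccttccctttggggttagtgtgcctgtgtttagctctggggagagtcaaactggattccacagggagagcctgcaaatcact
The Pdgfra window held 1 CAGATG, read on the minus strand, and Sapcd2 held 1 on the plus strand, while Ptprz1 held 1 ACAAAG and neither Cspg4 nor Ebf1 held any of these letters. CAGCTG or CAGATG was found in 27.7% of the promoters of the 440 protein-coding genes higher in OPCs than in each other type (defined below) and in 25.3% of all 14124 promoters of tested protein-coding genes. The shares were 17.05% and 15.1% for ACAAAG, and 8.64% and 8.34% for TATAAA. CpG pairs stood at a median of 4.68 per 100 bases in the promoters of the OPC genes and 5.35 in all. These matches describe the letters in the windows only.

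The 3 markers were all highest in the libraries labelled OPC. Pdgfra, the receptor the cells were caught by, stood at 1369 to 1908 CPM (median 1709.8) in the OPC libraries, and at 0.675 to 19.2 CPM in microglia, 8.96 to 99.5 in astrocytes and 145, 289.5, 214 and 112 in the 4 oligodendrocyte libraries. Cspg4, which encodes NG2, stood at 471 to 621 CPM (median 523) in OPCs against 1.58 to 6.8 in microglia, 4.38 to 22.7 in astrocytes and 46.8, 72.4, 39.9 and 10.4 in oligodendrocytes. Every OPC library lay above every other library for both genes, and the Cspg4 mean of 531 ± 55.4 CPM (SD, n = 6) was 12.5 times that of oligodendrocytes, the next highest type. Ptprz1, a receptor phosphatase that binds pleiotrophin and carries chondroitin sulfate, reached 2043 to 2693 CPM (median 2283) in OPCs, but astrocytes also held 1025 to 1437 CPM. Its log2 difference was 6.86 against microglia and 2.86 against oligodendrocytes, and 0.94 (SE 0.295, adjusted p = 0.0175) against astrocytes by the quasi-likelihood test of edgeR (Benjamini-Hochberg adjustment), which stands behind each adjusted p below. The groups did not overlap, so Ptprz1 was highest in OPCs without reaching a 2-fold difference from astrocytes.

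**Figure D1:**
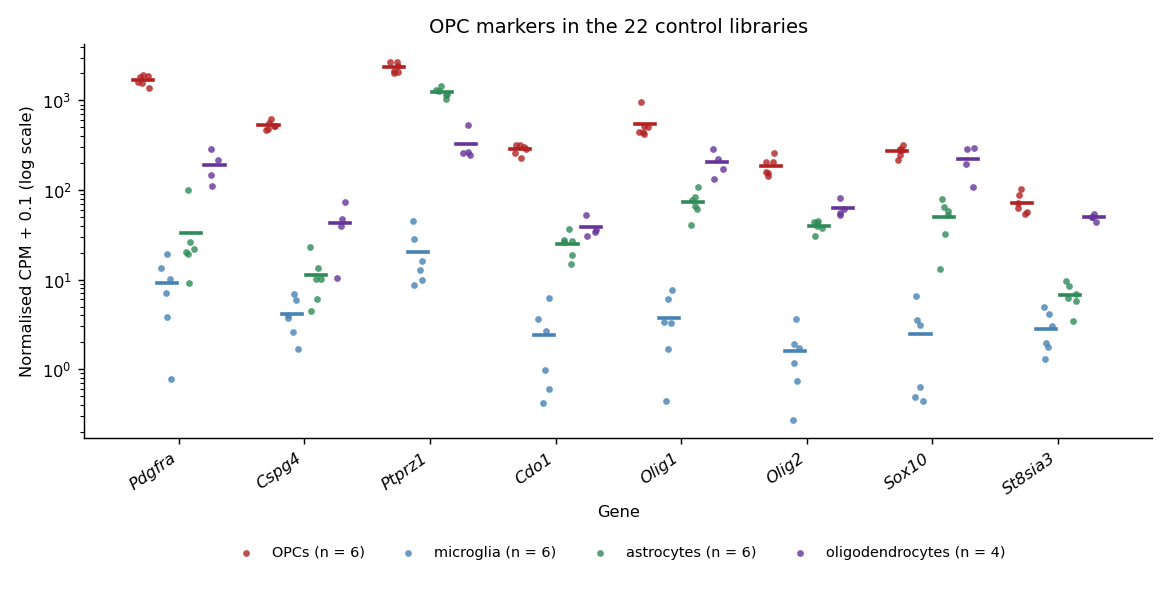
Normalised CPM plus 0.1, on a log axis, of the 3 markers and of the study's OPC panel in each of the 22 control libraries, with 1 point per library and a line at each group's mean. All 6 OPC libraries lie above all others for Pdgfra, Cspg4, Ptprz1, Cdo1, Olig1 and Olig2, whereas Sox10 and St8sia3 overlap with oligodendrocytes.

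All 7 genes of the panel the study used for OPCs (Pdgfra, Cspg4, Cdo1, Olig1, Olig2, Sox10 and St8sia3) were higher in OPCs than the mean of the other glia, with a median log2 difference of 3.85 against 0.09 over all genes tested. The panel was used by the study to mark OPCs in these samples and holds the selected gene, so its direction checks the labels and is no finding. Olig1 and Olig2, neighbouring genes on chromosome 16 for the basic helix-loop-helix factors of the lineage, stood at 419 to 963 CPM (median 479) and 145 to 258 CPM (median 181). Both exceeded oligodendrocytes, by a log2 difference of 1.46 (SE 0.403, adjusted p = 0.0094) for Olig1 and 1.52 (SE 0.299, adjusted p = 5.25e-04) for Olig2. The call of Olig1 was lost with heterozygous controls alone (1.11, adjusted p = 0.0645) and with the mice that gave all 4 cell types (1.21, adjusted p = 0.0705), and Olig1 was not OPC-high (a term defined below) in Rag2-/- libraries (0.96, adjusted p = 0.166). Sox10, a factor of the whole lineage, did not differ from oligodendrocytes beyond the spread, at 215 to 315 CPM (median 281) against 293, 283, 197 and 108 CPM (log2 difference 0.32 (SE 0.482, adjusted p = 0.666)). St8sia3, a sialyltransferase, likewise gave 0.57 (SE 0.291, adjusted p = 0.155) against oligodendrocytes. Over the panel, oligodendrocyte libraries stood at 31.3% ± 8.48 (SD, n = 4) of the OPC level, astrocytes at 9.43% ± 2.92 (SD, n = 6) and microglia at 0.701% ± 0.535 (SD, n = 6), as the median over the 7 genes.

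Markers of the other glia were low in the OPC libraries but not absent. As a median over each list, the 14 astrocyte markers stood at 9.18% ± 2.84 (SD, n = 6) of their level in astrocytes, the 15 oligodendrocyte markers at 3.37% ± 2.60 of that in oligodendrocytes and the 14 microglia markers at 4.29% ± 2.73 of that in microglia. The OPC library of mouse 2 was highest in astrocyte (13.6%) and oligodendrocyte (6.64%) markers and that of mouse 3 in microglia markers (9.44%). Counts given below for OPCs were therefore also computed without these 2 libraries, an alternative chosen after seeing the data. This alternative kept the OPC library of mouse 6, which held 6.29% in oligodendrocyte markers, close to mouse 2. Among the libraries kept, that of mouse 6 was also highest in astrocyte markers. Leaving out mice 2 and 3 thus removes such RNA only in part.

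Of 19368 genes tested, 4207 (21.7%) were higher in OPCs than the mean of the 3 other types and 2468 (12.7%) were lower, at an adjusted p under 0.05. A gene can exceed this mean through 1 low type, and 1601 of the 4207 had another type above OPCs. OPC-high genes were therefore defined as those at least 2-fold higher than each of the 3 other types with an adjusted p under 0.05 in each contrast, and OPC-low genes as those at least 2-fold lower than each. There were 481 OPC-high genes (2.48%), 440 of them protein-coding and 20 long noncoding RNAs, and 112 OPC-low genes (0.578%), 83 of them protein-coding. Without the OPC libraries of mice 2 and 3 the test gave 391 OPC-high genes, 372 of them among the 481, and 141 OPC-low genes, 95 of them among the 112. With the mouse as a replicate block the counts were 472, of which 434 were shared, and 103, of which 99 were shared. The split of calls depended on scaling, since without TMM 8765 genes were higher and 764 lower than the mean, 1379 were OPC-high and 38 OPC-low, with the median log2 difference of all genes raised by 0.570. Counts for the gene lists below are thus relative to TMM scaling. Without it the OPC-high members rose to 20 of 44 synaptic adhesion genes and 16 of 36 matrix genes. Glutamate receptor genes then gave 15 of 30 and lineage transcription factors 12 of 33. Each list count is to be read beside the shares over all genes tested, which were 21.7% higher, 12.7% lower, 2.48% OPC-high and 0.578% OPC-low.

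Oligodendrocytes came nearest to OPCs in most OPC-high genes. Among the 481 OPC-high genes the highest other type was the oligodendrocyte for 290, the astrocyte for 149 and microglia for 42. The same split over all genes tested was not computed, so it is not known whether it is particular to OPC-high genes. Single contrasts called 6284 genes higher and 5505 lower in OPCs than in microglia, 3373 and 2624 against astrocytes, and 2766 and 2428 against oligodendrocytes. The smallest of a gene's 3 log2 differences had a median of 2.13 over the OPC-high genes and ran from 1.00 to 7.03. In 395 of the 481 (82.1%) every OPC library lay above every other control library, a pattern shown by 558 genes (2.88%) of all tested. Of the OPC-low genes, 44 (39.3%) lay below every other library in every OPC library, against 87 genes (0.449%) of all. Both lists were chosen from these same libraries, so these shares describe the lists and do not test them. The genes nearest the 2-fold limit were Spry4, C1galt1 and Tmed8 just inside it, with smallest log2 differences of 1.003, 1.014 and 1.015, and Armc6, Fry and Dnmbp just outside it, with 0.996, 0.994 and 0.993.

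**Figure D2:**
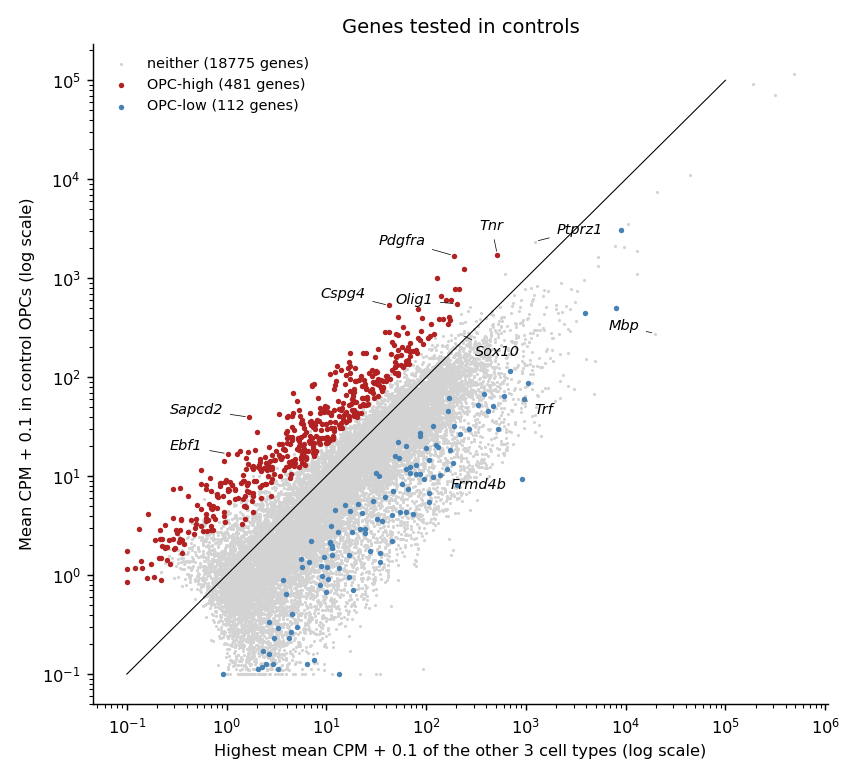
Mean CPM plus 0.1 in the 6 control OPC libraries against the highest mean among the other 3 cell types, both on log axes, for the genes tested in controls. Red points are the 481 OPC-high genes, blue points the 112 OPC-low genes, and the line marks equal levels, with Sox10 close to it.

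Protein-coding OPC-high genes spanned longer stretches of the genome than the rest, at a median of 42.9 kb from start to end against 27.5 kb over all protein-coding genes tested, while the exonic length was alike at a median of 6486 and 6390 bases. Of the 440, 140 (31.8%) spanned over 100 kb, against 16.2% of all, and so did 30.1% of the 83 OPC-low genes. Another OPC-high gene lay within 100 kb of 59 (13.4%) of them, against 8.11% of all genes tested. Such neighbours included Olig1 with Olig2 and Cacng4 with Cacng5, auxiliary subunits of glutamate receptors on chromosome 11. Per kilobase of exon, Olig1 was the most abundant OPC-high gene at 255 CPM per kb, followed by Kcnip3 at 149, Pdgfra at 137 and Tnr at 127.

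The protein-coding genes that set OPCs apart most widely, ranked by the smallest of the 3 differences among genes of at least 10 CPM in OPCs, were led by Sapcd2, a regulator of spindle orientation in dividing cells (chromosome 2, chr2:25262328-25268225). It stood at 25.3 to 54.4 CPM (median 39.2) in OPCs and at 0 to 0.197 CPM in microglia, 0.195 to 3.11 in astrocytes and 0.385, 5.73, 0.193 and 0 in the oligodendrocyte libraries. No group overlapped with OPCs, microglia held at most 3 counts per library so that OPCs were at least 129-fold higher, and the smallest log2 difference was 4.76 (SE 0.781, adjusted p = 7.03e-05), against oligodendrocytes. Ebf1, a transcription factor best known from early B cells, followed at 9.54 to 25.7 CPM (median 14.7), with no other control library above 2.44 CPM. Its 3 log2 differences were close to each other, from 4.29 to 4.52, so no other glial type came near OPCs in this gene. The part of cells other than glia in its level was not tested.

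The other genes of this ranking fell into receptors, matrix and adhesion proteins, a channel and signalling proteins. Vipr2, a receptor for vasoactive intestinal peptide, stood at 13.6 to 23.5 CPM (median 17.1) with no other library above 2.8 CPM. F2r, the thrombin receptor PAR1, stood at 34.4 to 49.03 CPM (median 42.8) with no other library above 5.1, and P2ry1, a receptor for ADP, at 6.59 to 17.4 CPM (median 10.8) with none above 5.27. All 3 receptors couple to G proteins, and their smallest log2 differences were 3.77, 3.68 and 3.51. P2ry1 lost its call with the mice that gave all 4 cell types (3.54, adjusted p = 0.0537). Kcnh8, a voltage-gated potassium channel, reached 8.5 to 21.7 CPM (median 13.8) against at most 2.66 in any other library. Emid1, a secreted protein with an EMI domain, stood at 60.2 to 78.7 CPM (median 69.1) against at most 10.1, and Plppr1, a membrane protein of growing neurites, at 22.5 to 35.7 CPM (median 26.6) against at most 2.51. For Plppr1, 6.48% of its 50-base stretches were shared with other transcripts, so its count is uncertain to that extent.

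Kinase and adhesion genes of the same ranking were also well separated. Stk32a, a serine/threonine kinase, stood at 51.8 to 93.7 CPM (median 86.9) and at most 10.4 CPM elsewhere, with 1 OPC library far below the other 5. Afap1l2, an adaptor of the kinase Src, stood at 68.6 to 97.8 CPM (median 88.9) against at most 15.2, and Cdh24, a cadherin, at 9.88 to 22.3 CPM (median 19.04) against at most 3.49. Lama1, the laminin alpha 1 chain of basement membranes, stood at 11.1 to 20.7 CPM (median 17.4) with no other library above 2.95. The remaining members of the ranking, Sulf1, Cspg4 and Matn4, belong to the matrix genes described next, and the largest adjusted p among all 15 genes in any of the 3 contrasts was 0.011.

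Long noncoding RNAs gave 20 OPC-high genes of 1907 tested, a smaller share than the 2.48% over all genes tested. A230077H06Rik stood at 5.52 to 16.8 CPM (median 11.3) in OPCs with no other library above 1.54 CPM, and its smallest log2 difference was 4.72. It lies on chromosome 7 at chr7:40467900-40550468 on the minus strand, where its end overlaps Vstm2b on the plus strand, itself OPC-high at 25.1 to 43.4 CPM (median 35.5). A930003O13Rik at 8.18 to 31.1 CPM (median 15.3) and 6030443J06Rik at 9.58 to 15.3 CPM (median 11.1) also lay above all other libraries, and the former lies within the span of the latter on the opposite strand of chromosome 5. Since the strand setting of the counting is not given in the sources used here, the counts of such overlapping genes cannot be told apart. Exons of Olig1, P2ry1 and Spry1 overlap genes on the opposite strand over 17.8%, 21.8% and 19% of their length, and the same limit holds for them. The call of 6030443J06Rik was lost without the oligodendrocyte library of mouse 3 (2.17, adjusted p = 0.0526). It was also lost with heterozygous controls alone (1.90, adjusted p = 0.0810) and with the mice that gave all 4 cell types (2.43, adjusted p = 0.0736). A930003O13Rik lost its call with heterozygous controls alone (2.54, adjusted p = 0.0538).

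Most matrix genes were higher in OPCs than the mean of the other glia, and fewer were higher than each other type. Of 36 matrix and proteoglycan genes tested, 31 were higher than the mean of the other glia and 3 lower, and 10 were OPC-high, with a median log2 difference of 2.36. Vcan, which encodes versican, a large chondroitin sulfate proteoglycan, stood at 882 to 1103 CPM (median 1055) in OPCs and at 113, 233, 93.1 and 70.2 CPM in the oligodendrocyte libraries, 39.1 to 76.4 in astrocytes and 1.65 to 12.6 in microglia. The groups were far apart, and its smallest log2 difference was 2.99 (SE 0.409, adjusted p = 7.17e-06). Tnr, which encodes tenascin-R, a glycoprotein that binds such proteoglycans, stood at 1349 to 2181 CPM (median 1649), with oligodendrocytes next at 475, 764, 509.9 and 320.1. Sulf1 and Sulf2, secreted enzymes that remove sulfate groups from heparan sulfate, stood at 39.7 to 73.4 CPM (median 60.3) and, for Sulf2, which was named after its values were seen, 707 to 887 CPM (median 777). No other library held more than 11.1 CPM of Sulf1, whereas Sulf2 reached 107 to 278 in oligodendrocytes. Both enzymes were OPC-high. Matn4, a matrilin that links matrix fibres, stood at 63.5 to 114 CPM (median 78.5) with at most 13.5 elsewhere.

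Enzymes that build chondroitin sulfate chains, the sugar that NG2 and versican carry, pointed the same way in part. Of 21 tested, 10 were higher than the mean and none was lower, and 3 were OPC-high. Xylt1, which adds the first sugar of the chain, stood at 597 to 806 CPM (median 636) in OPCs against 121 to 149.6 in astrocytes, 79.8, 169, 78.5 and 19.2 in oligodendrocytes and 7.95 to 13.3 in microglia. Chst11, which sulfates the chain, stood at 201 to 276 CPM (median 217) against at most 55.9 CPM in any other library. Dsel, an epimerase that turns chondroitin into dermatan sulfate, was lower at 10.4 to 22.1 CPM (median 13.7) and nearer to the others, with a smallest log2 difference of 1.29. Dsel lost its call by voom (adjusted p = 0.0658), with heterozygous controls alone (adjusted p = 0.103) and with the mice that gave all 4 cell types (adjusted p = 0.140). Summed over all 22 enzymes of the list, tested or not, the OPC libraries held 1049 to 1287 CPM (mean 1157). Astrocytes held 378 to 405, oligodendrocytes 156 to 401 and microglia 173 to 238, so the groups did not overlap. Xylt1 alone averaged 664 CPM in OPCs, so it and Chst11 made up most of the OPC sum. Sums without these genes were not computed.

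Transcription factors of the oligodendrocyte lineage numbered 33, of which 19 were higher than the mean, 4 lower and 6 OPC-high, among them Myt1, Sox6, Olig2, Olig1 and Sox4. Myt1, a zinc finger factor of precursor cells, stood at 114 to 157 CPM (median 127) with 15.03, 18.8, 13.3 and 3.62 CPM in the oligodendrocyte libraries and at most 18.8 in any other library. Sox6, which holds precursors back from maturing, stood at 223 to 274 CPM (median 254) against 73.5 to 94.97 in astrocytes and 48.7, 69.2, 29.1 and 7.24 in oligodendrocytes. Both genes were above all other libraries, but Sox6 lost its call with the mice that gave all 4 cell types (1.53, adjusted p = 0.0787).

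Receptors of growth factors were mixed, with 17 of 32 higher than the mean and 5 lower, and Pdgfra, the selected gene, as their one OPC-high member. That 1 of 32 is close to the 2.48% of OPC-high genes over all genes tested. Feedback inhibitors and targets of receptor tyrosine kinases gave 10 of 17 higher and 2 OPC-high, Spry1 and Spry4, which dampen growth factor signals. Spry1 stood at 26.2 to 46.99 CPM (median 33.98) in OPCs and at 4.11, 22.5, 4.63 and 24.9 CPM in oligodendrocytes, and Spry4 at 41.3 to 119 CPM (median 62.04) against 31.2 to 42.1 in astrocytes. Neither call was firm. For Spry1 the smallest log2 difference of 1.29 became 1.18 (adjusted p = 0.0603) without the OPC library of mouse 4, 1.00 (0.0774) without the oligodendrocyte library of mouse 1 and 0.94 (0.109) without that of mouse 5. Spry4 lay at the 2-fold limit, with 0.98 (adjusted p = 0.0363) under the replicate block and 0.72 (adjusted p = 0.0996) without the OPC library of mouse 4, and it lost the call in 13 of the 22 leave-one-out fits.

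Glutamate receptor genes, through which OPCs receive signals of neurons, were mostly higher than the mean too. Of 30 ionotropic glutamate receptor genes and their auxiliary subunits, 21 were higher in OPCs than the mean of the other glia, none was lower and 9 were OPC-high, with a median log2 difference of 2.28. Cacng4, an auxiliary subunit that brings AMPA receptors to the membrane, stood at 360.5 to 444 CPM (median 406) in OPCs, 44.3, 87.9, 43.95 and 32.9 CPM in the oligodendrocyte libraries, 7.22 to 26.1 in astrocytes and 0.0787 to 4.59 in microglia. Its relative Cacng5 stood at 27.5 to 41.5 CPM (median 36.1) with at most 10.6 elsewhere. The NMDA receptor subunits Grin3a and Grin2d stood at 99.6 to 142 CPM (median 109) and 8.92 to 16.6 CPM (median 14.3), each above all other libraries, with smallest log2 differences of 1.87 and 2.57. The other 5 OPC-high members were Grid1, Grik3, Gria3, Gria4 and Gsg1l. In sum over the 30 genes, OPCs held 2184 to 2565 CPM and overlapped with the 1376 to 2458 of oligodendrocytes. Subunits of the GABA-A receptor gave 6 of 12 higher than the mean and no OPC-high gene, and astrocytes held more of them in sum, at 425 to 655 CPM against 324 to 429 in OPCs.

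Of 36 voltage-gated ion channel genes, 30 were higher than the mean, none lower and 3 OPC-high. Kcnd3 and Kcnd2, which encode A-type potassium channels, stood at 68.4 to 115 CPM (median 91.97) and 58.5 to 86.1 CPM (median 68.8), with at most 35.1 and 26.5 CPM in any other library. Kcnip3, a calcium-binding subunit of the same channels, stood at 519 to 738 CPM (median 592) against 113 to 247 in astrocytes and 101, 94.4, 106 and 124 in oligodendrocytes. The channels and their partner were each above all other libraries. In sum over all 37 genes of the list, tested or not, oligodendrocytes at 1811 to 2534 CPM overlapped with OPCs at 2116 to 2444.

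Synaptic adhesion and scaffold genes gave 34 of 44 higher, 1 lower and 10 OPC-high. Pcdh15, a protocadherin known from the tip links of hair cells, stood at 354 to 453 CPM (median 392) in OPCs and 74.1, 98.4, 159 and 34.1 CPM in the oligodendrocyte libraries, with astrocytes at 8.03 to 23.2. Dscam, a homophilic adhesion molecule of neurites, stood at 259 to 321 CPM (median 276), and the contactins Cntn1 and Cntn6 at 641 to 895 CPM (median 768) and 27.3 to 69.2 CPM (median 35.9). All 4 lay above every other library, with smallest log2 differences of 2.15, 2.13, 1.98 and 3.01. In sum over the 44 genes, however, oligodendrocytes reached 4924 to 7916 CPM and overlapped with the 5557 to 6203 of OPCs.

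Neurons express many of the same receptor, channel and adhesion genes, so their markers are given beside these groups. The 14 neuron markers summed to 754 to 1402 CPM in OPCs, 174 to 342 in microglia, 333 to 618 in astrocytes and 1878 to 4963 in oligodendrocytes, and none was at 0 in all libraries of a type. Of the 14, 5 were higher in OPCs than the mean and none was OPC-high. Their sum was thus lower in OPCs than in oligodendrocytes and higher than in microglia and astrocytes, and its part in the differences from the latter types was not tested.

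Axon guidance genes gave 20 of 35 higher, 4 lower and 3 OPC-high. Ntn1, the secreted guidance cue netrin 1, stood at 101 to 138 CPM (median 127) with 5.78, 33.6, 17.2 and 8.34 CPM in the oligodendrocyte libraries and 0.603 to 8.1 in astrocytes. The semaphorins Sema5b and Sema3d stood at 146 to 249.7 CPM (median 159.6) and 73.5 to 147 CPM (median 103). No other library came above 27.3 for Sema5b or 30.6 for Sema3d.

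**Figure D3:**
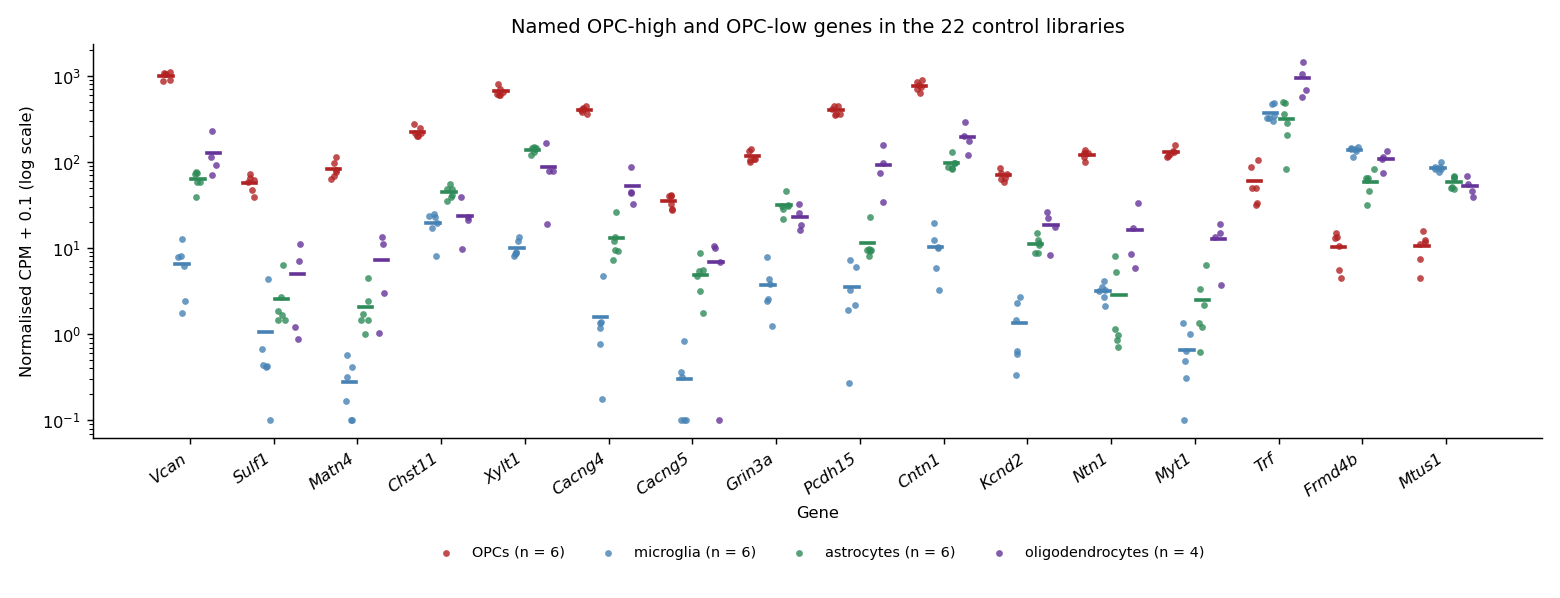
Normalised CPM plus 0.1, on a log axis, of 13 OPC-high genes (Vcan to Myt1) and 3 OPC-low genes (Trf, Frmd4b and Mtus1) in each of the 22 control libraries, with 1 point per library and a line at each group's mean. The 6 OPC libraries lie above all others for the former, and below all others for Frmd4b and Mtus1, while the highest OPC libraries for Trf reach into the astrocyte range.

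Cell cycle genes gave 26 of 36 higher than the mean of the other glia, 2 lower and 8 OPC-high, at low levels. Ccna2, the cyclin of S and G2 phase, stood at 3.42 to 11.5 CPM (median 6.36) in OPCs and at most 2.73 CPM in any other library, with a smallest log2 difference of 2.21 (adjusted p = 0.00691). Tpx2, a spindle assembly factor, stood at 6.84 to 21.3 CPM (median 10.3), Ube2c, which helps to end mitosis, at 1.01 to 12.4 CPM (median 5.5), and Mcm5, part of the replicative helicase, at 6.87 to 10.3 CPM (median 8.24). These calls were thin. Ube2c lost its call in 13 of the 22 leave-one-out fits (1.88 with an adjusted p of 0.105 without the OPC library of mouse 2) and under the replicate block (2.00, adjusted p = 0.104), Mcm5 in 6 (1.60, adjusted p = 0.0724 without that of mouse 5) and under the block (1.76, adjusted p = 0.0520), and Tpx2 in 3 (1.80, adjusted p = 0.0633 without that of mouse 1). The list held 4 OPC-high genes without the OPC library of mouse 2, 3 without those of mice 2 and 3, 6 under the block and 1 with the mice that gave all 4 cell types, where Ccna2 also lost its call (2.10, adjusted p = 0.0917), but 15 by voom and 17 without TMM scaling. In sum, microglia held more of the 36 genes, at 1235 to 1417 CPM against 563 to 664 in OPCs, 266 to 354 in astrocytes and 242 to 468 in oligodendrocytes. Pcna and Ccnd2, a clamp for DNA polymerase and a cyclin of G1 phase, were the members lower than the mean, though Pcna shares 31.8% of its 50-base stretches with other transcripts.

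The stages after the precursor were split. Of 12 markers of differentiating oligodendrocytes, 7 were higher in OPCs than the mean, 2 were lower and 2 were OPC-high. Neu4, a sialidase, stood at 132 to 151 CPM (median 146) in OPCs and 16.8, 24.2, 17.2 and 9.13 CPM in the oligodendrocyte libraries, and Gpr17, a receptor of cells committed to differentiate, at 526 to 688 CPM (median 593) and 177, 235, 180.2 and 47.5. Gpr17 was not OPC-high in Rag2-/- libraries. In sum over the 12 genes oligodendrocytes were higher, at 2360 to 3476 CPM against 1792 to 1933 in OPCs. Myelin genes gave 9 of 18 lower than the mean, 5 higher and none OPC-high, with a median log2 difference of -0.95 (-1.19 with genes at the floor of 3 counts set to their bound). Without TMM scaling 3 of the 18 were lower, 6 higher and 2 OPC-high, with a median of -0.38. Mbp, a main protein of myelin, stood at 155 to 519.8 CPM (median 216) in OPCs, 20334, 15893, 23065 and 19915 in the oligodendrocyte libraries and 2154 to 2860.4 in astrocytes, but at only 42.2 to 62.9 in microglia, so OPCs were not the lowest type. Cholesterol synthesis genes gave 7 of 22 higher, 1 lower and none OPC-high, beside 21.7% higher, 12.7% lower and 2.48% OPC-high over all genes tested.

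**Figure D4:**
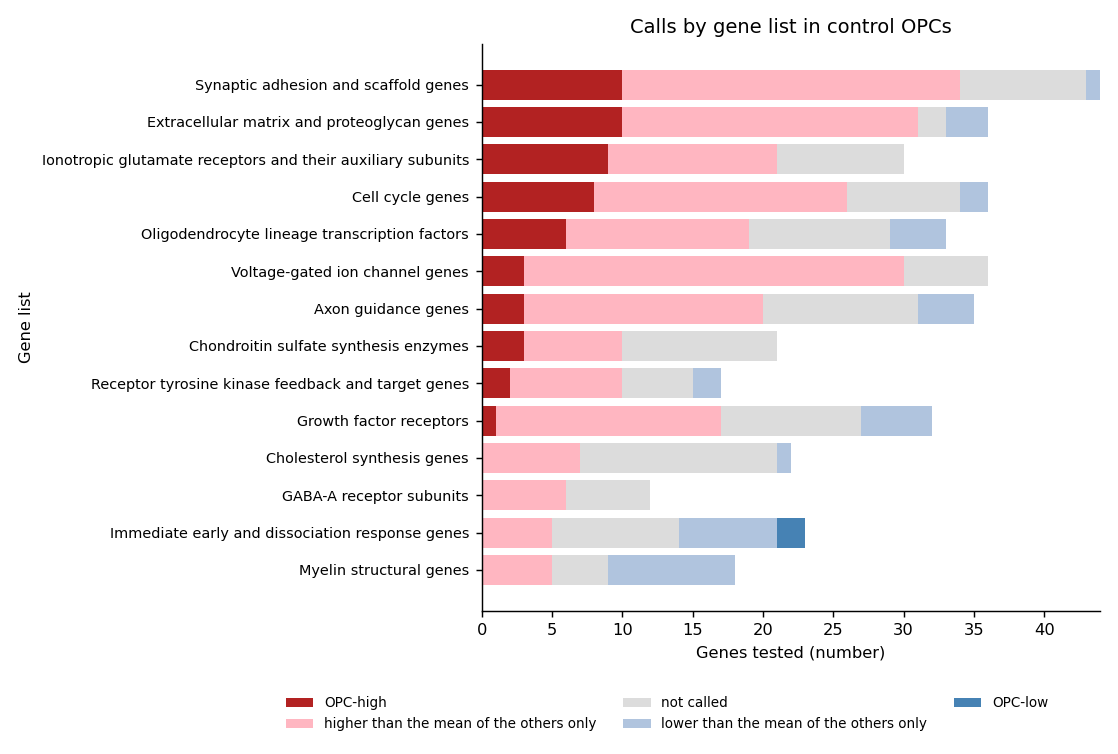
Number of tested genes of 14 gene lists, coloured by their call in control OPCs, from OPC-high through not called to OPC-low. Synaptic adhesion and matrix genes hold 10 OPC-high members each, glutamate receptors 9, and the myelin list none (2 without TMM scaling).

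OPC-low genes, lower in OPCs than in each other type, had a median log2 difference of -1.54 from the nearest type. Frmd4b, a scaffold protein with a FERM domain, stood at 4.45 to 14.9 CPM (median 11.8) in OPCs against 116 to 149.9 CPM in microglia, 31.5 to 83.5 in astrocytes and 136, 109, 74.8 and 114 in oligodendrocytes, and Mtus1, a microtubule-binding protein, at 4.45 to 15.8 CPM (median 11.4) against no less than 39.7 anywhere else. Every OPC library lay below every other library for both. Trf, the iron carrier transferrin, stood at 31.9 to 105 CPM (median 50.2) in OPCs against 1062, 1461, 693 and 571 in the oligodendrocyte libraries, 304 to 485 in microglia and 83.4 to 499.6 in astrocytes. The highest OPC library overlapped with the lowest astrocyte library for Trf, and the log2 difference from astrocytes was -2.43 (SE 0.368, adjusted p = 1.58e-05).

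The other leading OPC-low genes came from several functions. Galnt6, which starts O-linked sugar chains, stood at 2.25 to 10.3 CPM (median 3.84) with oligodendrocytes at 157, 166, 54.2 and 53.98 CPM, and Tmem63a, a mechanically gated ion channel, at 3.25 to 23.8 CPM (median 13.3) with oligodendrocytes at 263, 251, 130.1 and 99.3. Padi2, which converts arginine to citrulline in proteins, stood at 3.42 to 9.61 CPM (median 7.44) and no lower than 11.6 elsewhere, and Ston2, an endocytic adaptor, at 9.66 to 29.8 CPM (median 18.5) and no lower than 57.5. Zbtb7b, a zinc finger factor, stood at 1.28 to 7.31 CPM (median 3.89) and overlapped with oligodendrocytes. Trf, Galnt6 and Tmem63a were highest in the OPC libraries of mice 2 and 6, which also held the most oligodendrocyte marker RNA (6.64% and 6.29% of the oligodendrocyte level), and the part of such RNA in their levels was not tested. Exons of Mtus1 and Zbtb7b overlap genes on the opposite strand over 16.2% and 15.7% of their length, so their counts are uncertain to that extent.

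Genes that respond within minutes to stimulation or dissociation were lower in 9 of 23 and higher in 5, with a median log2 difference of -0.49 that became 0.05 when library sizes were not scaled by TMM. Over all genes tested, 12.7% were lower and 21.7% higher, so the number higher was near that share. The OPC-low members were Hspa1a, at 4.18 to 12.7 CPM (median 9.17) in OPCs and 44.8 to 81.3 CPM in microglia, and Hspa1b, at 0.531 to 2.44 CPM (median 1.19) and 5.01 to 8.82. Both encode the inducible heat shock protein HSP70 and share 60.3% and 62.3% of their 50-base stretches with other transcripts, so their separate levels are uncertain. Hspa1b lost its call without the OPC libraries of mice 2 and 3 (-1.10, adjusted p = 0.0955). OPCs held 2025 to 3217 CPM over the list, microglia 7660 to 9923, astrocytes 2322 to 3357 and oligodendrocytes 1674 to 2802.

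Markers of vessels and borders were raised in the OPC libraries at low levels. Of 12 fibroblast markers, 9 were higher than the mean, 2 lower and 3 OPC-high (Lum, Lama1 and Slc6a13), of 11 mural cell markers 8 were higher and 2 OPC-high (Cspg4 and Vtn), of 12 endothelial markers 7 were higher and 2 OPC-high (Itm2a and Emcn), and of 3 ependymal and choroid plexus markers 2 were higher and 1 OPC-high (Kl). Lum, the collagen-binding lumican, stood at 1.31 to 6.34 CPM (median 3.15) in OPCs, at 0 in all 4 oligodendrocyte libraries and at most 0.41 elsewhere, at least 7.55-fold above oligodendrocytes. Vtn, the plasma and pericyte protein vitronectin, stood at 24.99 to 62.2 CPM (median 43.3), and its call was lost without the oligodendrocyte library of mouse 5 (1.84, adjusted p = 0.0570). Emcn lost its call under the replicate block (2.19, adjusted p = 0.0680) and in 9 leave-one-out fits, and Slc6a13 in 14.

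Summed over all members, tested or not, and with Cspg4 left out, each of these lists overlapped between OPCs and at least 1 other type. Fibroblast markers summed to 74.4 to 133 CPM in OPCs, 139 to 247 in astrocytes, 53.7 to 82.7 in microglia and 23.7 to 58.9 in oligodendrocytes, with 2 of the genes at 0 in all astrocyte and 3 in all oligodendrocyte libraries. The larger astrocyte sum did not hold for each member. Of 12 tested, 9 were higher in OPCs than the mean of the other glia and 2, Col6a3 and Slc13a3, were lower. Lum and Dcn were far lower in astrocytes than in OPCs. Mural markers other than Cspg4 summed to 99.6 to 320.0 CPM in OPCs, 129 to 189.9 in astrocytes, 28.3 to 63.6 in microglia and 17.98 to 186 in oligodendrocytes. Endothelial markers summed to 51.7 to 119 CPM in OPCs (mean 80.7) and at most 84.8 in any other library, with means of 45.0 in microglia, 27.3 in astrocytes and 39.1 in oligodendrocytes. The 8 ependymal and choroid plexus markers of the list summed to 15.6 to 22.1 CPM in OPCs and at most 16.2 elsewhere. With the mice that gave all 4 cell types, 2 endothelial markers were higher than the mean and none was OPC-high. Some OPC-high genes named above stand on these lists, such as Lama1 among the fibroblast markers. The part of vessel and border cells in those genes, or in OPC-high genes off the lists such as Ebf1, was not tested.

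In the single contrasts, increases were ranked among protein-coding genes with a mean of at least 10 CPM in OPCs. The leading genes were mostly low or absent in the other type. Against microglia these were Gsx1, a homeodomain factor at 9.88 to 21.02 CPM (median 13.2) in OPCs and 0 in all 6 microglia libraries (at least 48.2-fold), Matn4, and Dipk1c, at 10.8 to 24.3 CPM (median 15.8) but higher still in astrocytes (23.7 to 37.5 CPM). Against astrocytes they were Dcn, the matrix protein decorin and a fibroblast marker (8.33 to 29.8 CPM (median 11.3) against 0 to 0.584), Vstm2b, and Galnt3, an enzyme of O-linked glycosylation (19.1 to 31.5 CPM (median 25.1) against 0 to 1.22). Against oligodendrocytes they were Hapln3, a link protein of hyaluronan (10.2 to 25.7 CPM (median 13.5) against 0 to 0.578, at least 33.9-fold), Cenpf, a kinetochore protein, and Fzd1, a Wnt receptor at 13.8 to 26.7 CPM (median 22.2) that astrocytes held at 32.1 to 53.8. Hapln3 and Cenpf were also OPC-high, but the call of Hapln3 was lost under the replicate block (1.28, adjusted p = 0.0558) and that of Cenpf without the OPC library of mouse 2 (1.38, adjusted p = 0.0608).

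The same rule was applied to the 21 Rag2-/- libraries, among them 5 of OPCs, as a comparison in other mice. It gave 427 OPC-high genes of 19412 tested (2.2%) and 91 OPC-low genes (0.469%). Of the 481 OPC-high genes of controls, 269 (55.9%, or 63.0% of the 427) were OPC-high again, and of the 469 tested there 460 lay above all 3 other types in their estimates, with a median smallest log2 difference of 1.60. Of the 112 OPC-low genes, 55 (49.1%, or 60.4% of the 91) were OPC-low again, and 87 of the 111 tested lay below all 3 types. Sapcd2 stood at 33.4 ± 9.17 CPM (SD, n = 5) in Rag2-/- OPCs beside 39.4 ± 10.8 (SD, n = 6) in controls, Cspg4 at 482 ± 83.1 beside 531 ± 55.4, and Vcan at 884 ± 82.1 beside 1009 ± 97.8. The 2 sets were normalised separately. Of the 15 leading protein-coding genes 11 were OPC-high in both, and of the 8 leading OPC-low genes 7 were OPC-low in both, whereas none of the 3 long noncoding RNAs was called again.

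**Figure D5:**
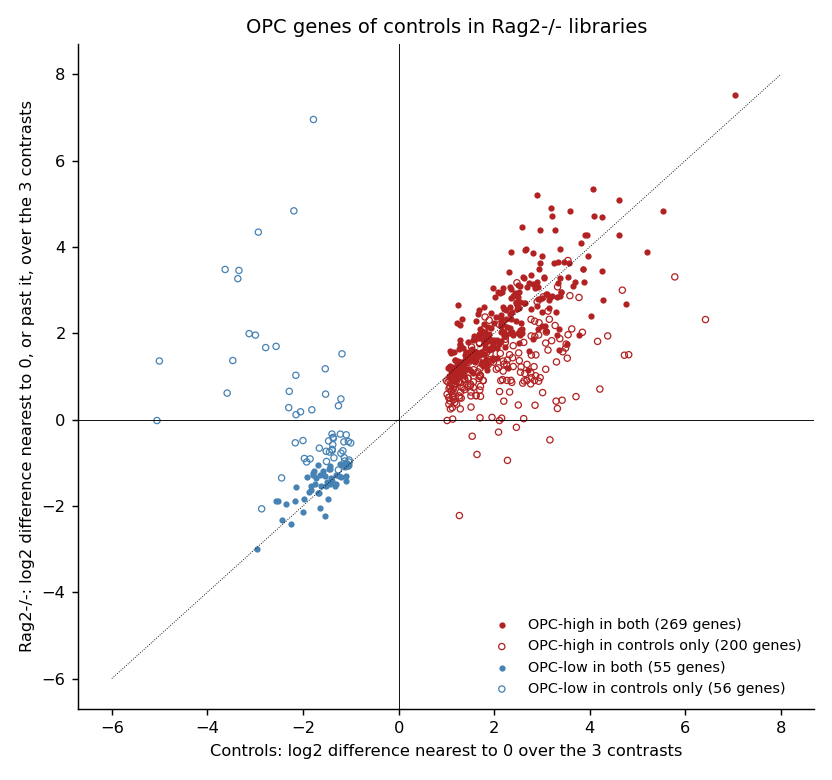
The log2 difference nearest to 0 over the 3 contrasts in controls (horizontal) and the corresponding difference in Rag2-/- libraries (vertical) for genes called in controls and tested in both. Filled points were called in both (269 OPC-high and 55 OPC-low genes), open points in controls only, and the dotted line marks equal differences.

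Whether the difference between OPCs and the mean of the other glia depended on Rag2 was tested in 1 fit of all 43 libraries. Of 21368 genes, 1 passed (0.00468%), while 1200 had an unadjusted p under 0.05. DESeq2 called 35 genes, edgeR without a filter on low counts 131, and edgeR with the replicate block 0, with 872 at an unadjusted p under 0.05. The 1 gene was Ly6a, a surface protein anchored to the membrane by a lipid, with a log2 difference in controls that was lower by 4.51 (SE 0.773, adjusted p = 0.0204) than in Rag2-/- libraries. It stood at 2.33 ± 0.942 CPM (SD, n = 6) in control OPCs and 8.55 ± 3.89 (SD, n = 5) in Rag2-/- OPCs. All 4 Rag2-/- oligodendrocyte libraries were at 0, so the fitted size depends on the prior count and is no bound. The summed endothelial markers averaged 80.7 ± 25.5 CPM in control OPCs (SD, n = 6) and 117 ± 46.9 in Rag2-/- OPCs (SD, n = 5), with overlapping ranges. In oligodendrocytes they averaged 39.1 in controls and 28.2 in Rag2-/- libraries. The part of vessel RNA in the level of Ly6a was not tested.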

How the data were processed

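RNA of immunopanned cortical glia from 3-month-old mice was amplified and sequenced by the authors, who used STAR 2.7.8a and the GRCm39 genome for alignment and HTSeq with an Ensembl annotation for counting. The deposited values are whole-number counts per gene for 55416 identifiers in each library, without normalization, and the strand setting and counting mode are not given in the sources used here. Read pairs assigned to no gene, 40.0% to 47.8% of the OPC libraries, were left out. Amplified copies are not independent molecules, so the floor of 3 counts covers counting error only.

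Gene names, biotypes and coordinates came from GENCODE M39 (GRCm39), which held 54749 of the identifiers. The 22 control libraries were fitted in R 4.3.3 with edgeR 4.0.16 (TMM scaling, filterByExpr by cell type with a minimum count of 10 and total of 15, quasi-likelihood test, two-sided) with cell type and sex as terms. OPCs were tested against the mean of the 3 other types and against each, with Benjamini-Hochberg adjustment over all genes tested. Standard errors were derived from the log2 difference and the F statistic. Where each library of a group held at most 3 counts, folds are lower bounds set by that floor. The 21 Rag2-/- libraries were fitted in the same way, and all 43 in a joint fit. Scripts were checked on simulated counts with known changes in 200 genes. The smallest chi-square between 2 OPC libraries was 12.1 per gene, so each was counted as its own sample. Promoters were cut from GRCm39, and shared 50-base stretches were searched among transcripts on the same strand. Values were assembled in Python 3.11.15 (pandas 2.3.3, numpy 2.4.6) and plotted with matplotlib 3.10.9.

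Control libraries with the same number were taken to come from the same mouse, which would make them paired by design. Over genes, deviations of same-mouse libraries of different types from their group means correlated by 0.0446 on average (30 pairs, -0.00903 to 0.191), against -0.00888 for different mice (150 pairs).

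The members, gene lists and tests were chosen with earlier results of these data known. Named were the markers and the study's panel. Also named were the 15 protein-coding and 3 long noncoding OPC-high genes with the largest smallest log2 difference at a mean of at least 10 CPM. The 8 protein-coding OPC-low genes followed by the same ranking. Each list gave up to 4 OPC-high and 2 OPC-low members and 2 members lower than the mean, and marker lists their defining members. Each contrast gave the 3 largest increases among protein-coding genes with a mean of at least 10 CPM in OPCs. Sulf2, Tnr, Sox4, Grid1, Grik3, Gria3, Gria4, Gsg1l, Ly6a and the genes at the 2-fold limit were named after their values were seen, and 1 gene is not reported here. Alternatives were DESeq2 1.42.0, its size factors, no TMM, no filter, a mean count of at least 10, voom in limma 3.58.1, a robust fit, glmTreat, no sex term, the mouse as a block, equal weights for the other libraries, no mitochondrial genes, heterozygous controls alone, mice with all 4 cell types, other fold limits and each library left out.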

Additional observations from a re-analysis of the deposited data

Results flagged for a closer look

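Among 103 named genes, 7 had 1 control OPC library far from the other 5 by Dixon's criterion, which chance meets in about 1 in 20 groups. Olig1 reached 963.2 CPM in the library of mouse 4, against 419.0 to 519 in the others. Stk32a was low in the library of mouse 2, at 51.8 CPM against 80.7 to 93.7. Sema5b reached 249.7 CPM in that of mouse 5, against 146 to 175.7. The other 4 genes were highest in the library of mouse 3, which also held the most microglia marker RNA (9.44% of the microglia level). These were Csf1r, the receptor of colony stimulating factor 1 (360.8 CPM), F13a1, a border macrophage marker (10.8 CPM), Tgfbr2, a receptor of TGF-beta (24.8 CPM), and Zfp36, an RNA-binding protein of early responses (150.1 CPM), and the part of microglial RNA in these values was not tested.

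For Ly6a the difference between OPCs and the mean of the other glia was lower in controls than in Rag2-/- libraries by the joint edgeR test, with a log2 value of -4.51 (SE 0.773, adjusted p = 0.0204). The replicate block left no gene called, and Ly6a was at 0 in all 4 Rag2-/- oligodendrocyte libraries, so this size is no bound.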

How the results depend on the processing

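Without TMM scaling, which moved the median log2 difference of all genes by 0.570, 8765 genes were higher and 764 lower than the mean of the other glia (4207 and 2468 with it), and 1379 were OPC-high and 38 OPC-low (481 and 112 with it). There, Tcf7l2 (0.23), Spred1 (0.30) and Cadm1 (0.21) changed direction against the mean. Voom called 3748 lower, glmTreat 186 OPC-high and 33 OPC-low, and mice with all 4 cell types 4167 in all, 2741 higher, 1426 lower and 285 OPC-high. Without a fold limit 253 genes were OPC-low, and at a log2 limit of 2 there were 256 OPC-high and 32 OPC-low. DESeq2 gave 537 OPC-high genes, 463 of them among the 481. The dependence on Rag2 gave 35 genes by DESeq2, 131 without a filter and 0 under the replicate block. With the mouse as a replicate block, 6457 genes differed from the mean, 472 were OPC-high and 103 OPC-low, and the named genes whose call it ended were Emcn, Hapln3, Mcm5, Nkx6-2 (-1.40, adjusted p = 0.0844), Spred1 (-0.26, adjusted p = 0.0585), Spry4 and Ube2c.

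With 1 library left out, 5889 to 7334 genes differed from the mean, 3680 to 4567 higher and 2209 to 2767 lower, 416 to 495 were OPC-high and 104 to 138 OPC-low, and in Rag2-/- libraries 340 to 475 were OPC-high, 236 to 270 of them also in controls. Of 103 named genes, 17 lost a call in at least 1 of these fits and 35 under another alternative. The cause was not tested. Where a type held at most 3 counts per library, depth allows only a lower bound of the fold.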

Other observations

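Of 14 astrocyte markers, 4 were higher in OPCs than the mean of the other glia, none was lower and none was OPC-high, but the number higher was 0 without the OPC libraries of mice 2 and 3 or with the mice that gave all 4 cell types, 9 by voom and 10 without TMM scaling. Over all genes tested 21.7% were higher, so the 4 of 14 lie near that share. Of 15 oligodendrocyte markers, 1 was higher, 11 were lower (5 without TMM) and Trf was OPC-low. Microglia markers were lower in 13 of 14 (1 without TMM and 6 with the mice that gave all 4 cell types) and higher in none, and border macrophage markers lower in 3 of 6 (0 to 6 over the alternatives) and higher in none. No oligodendrocyte, microglia or border macrophage marker was OPC-high either. OPC-high members stood on the differentiating oligodendrocyte list (Neu4 and Gpr17) and on the OPC, vessel and border lists described above.

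OPC-high genes varied over the 6 OPC libraries by a median coefficient of variation of 22.2%, against 19.6% over all genes of at least 10 CPM in OPCs. In 3 of the 481 OPC-high genes, named after their values were seen, 1 library held over 50% of the summed OPC level. These were Gm15418 (72.5%, mouse 4), Tdp2, which repairs DNA ends left by topoisomerase 2 (61.5%, mouse 1), and Cited1, a transcriptional cofactor (52.9%, mouse 4).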
